A study of Homo sapiens with 12 samples.

Results

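The transcripts of the mitochondrial genome were followed in DU145 and PC3, established human prostate cancer cell lines, before and after selection for resistance to docetaxel, a taxane that stabilises microtubules. Members were all genes whose symbol begins with MT- and whose chromosome is the mitochondrial genome, which gave 37 of the 38611 genes in the deposited tables: 13 messenger RNAs (mRNAs), 2 ribosomal RNAs (rRNAs) and 22 transfer RNAs (tRNAs). The annotation placed 28 of them on the plus strand and 9, MT-ND6 and 8 tRNAs, on the minus strand. All 37 had the same start and end as in a GENCODE annotation of GRCh38, and all 37 passed the filter on low counts.

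Each of the 4 groups had 3 RNA-seq libraries. DU145_NC and PC3_NC are the parental control lines. DU145_R and PC3_R are sublines grown in stepwise higher docetaxel. DU145 was started at 10 and PC3 at 0.5, and the resistant cells had half-maximal inhibitory concentrations of 1800 and 15, all in the submitters' unit of nm/ml. The labels do not say whether the 3 libraries of a group came from separate cultures, whether a subline is 1 clone, or whether drug was present at harvest. The p-values below therefore measure the spread between these libraries, which may be technical. The libraries were made from RNA selected with oligo(dT), per the labels.

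Human mitochondrial DNA is a small circle transcribed along almost its whole length from both strands, into long precursors. The tRNAs lie between most of the other genes, and their excision by RNase P and ELAC2 releases the mRNAs and rRNAs. The mRNAs encode core subunits of respiratory complexes I, III and IV and of the ATP synthase, complex V, and most of them then receive a poly(A) tail. Genes on the plus strand of the reference come from the heavy-strand promoter, with the 2 rRNAs near its start. The minus-strand genes come from the light-strand promoter, and MT-ND6 is the 1 mRNA among them. Mature tRNAs end in CCA and carry no poly(A) tail, so an oligo(dT) library is not a measure of mature tRNA.

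The tRNA genes that the results turn on were the 8 of the minus strand, which lie in several places on the circle, and the plus-strand MT-TL1 next to the 16S rRNA gene. Their sequences are given 5′ to 3′ in the direction of the gene, from GENCODE transcripts on GRCh38, with the anticodon in capitals. MT-TA (alanine, chrM:5587-5655), MT-TN (asparagine, chrM:5657-5729), MT-TC (cysteine, chrM:5761-5826) and MT-TY (tyrosine, chrM:5826-5891) form a block between MT-ND2 and MT-CO1. MT-TS1 (a serine tRNA, chrM:7446-7514) follows MT-CO1. MT-TE (glutamic acid, chrM:14674-14742) lies beside MT-ND6, and MT-TP (proline, chrM:15956-16023) is the last gene of the reference sequence. MT-TQ (glutamine, chrM:4329-4400) overlaps the opposite-strand MT-TI by 3 bases. MT-TL1 (a leucine tRNA, chrM:3230-3304) is the exception on the plus strand.
MT-TA: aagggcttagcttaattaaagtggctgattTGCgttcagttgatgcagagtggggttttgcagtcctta
MT-TN: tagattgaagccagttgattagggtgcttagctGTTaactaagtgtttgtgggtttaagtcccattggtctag
MT-TC: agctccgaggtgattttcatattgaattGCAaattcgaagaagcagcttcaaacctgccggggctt
MT-TY: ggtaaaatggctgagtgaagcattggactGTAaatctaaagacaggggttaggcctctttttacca
MT-TS1: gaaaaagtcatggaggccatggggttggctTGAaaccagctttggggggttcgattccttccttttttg
MT-TP: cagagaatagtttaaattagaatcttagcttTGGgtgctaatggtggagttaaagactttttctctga
MT-TQ: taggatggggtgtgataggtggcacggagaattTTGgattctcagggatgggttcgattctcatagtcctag
MT-TE: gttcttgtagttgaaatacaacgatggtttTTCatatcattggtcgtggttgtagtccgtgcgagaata
MT-TL1: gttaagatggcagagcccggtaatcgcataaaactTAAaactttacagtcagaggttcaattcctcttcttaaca

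The 2 strands also differ in composition. Guanine made up 23.5% to 36.1% of each minus-strand tRNA, with a median of 28.02%, against 10.3% to 19.1%, median 15.4%, in the 14 plus-strand tRNAs. MT-TL1, itself 1 of these 14, had 17.3% guanine.

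Library totals ran from 62513103 to 72530254 counts. The epithelial markers EPCAM, KRT8 and KRT18 were present in every group. Levels are in CPM, counts per 1000000 counts, which in this paragraph are per library total and in later ones TMM-scaled. The sum of these markers went from 710 to 728 CPM in DU145_NC up to 1301 to 1344 in DU145_R. It went from 447 to 469 in PC3_NC down to 221 to 227 in PC3_R, so both lines had the directions of the mitochondrial share given next. The fibroblast markers COL1A1, COL1A2 and DCN summed to 21.1 to 35.4 CPM in DU145_NC and 4.82 to 9.37 in DU145_R, and to 107 to 112 in PC3_NC and 10.7 to 16.6 in PC3_R, lower in both resistant lines. The endothelial markers PECAM1 and CDH5 summed to at most 0.719 CPM in DU145, and to 17.5 to 19.0 in PC3_NC and 22.1 to 29.1 in PC3_R, nearly all of it PECAM1. The leukocyte markers PTPRC, CD3E and LYZ summed to at most 0.388 CPM. The part of these marker differences in the results was not tested. Replication-dependent histone mRNAs, which lack poly(A) tails, summed over 10 genes to 61.5 to 73.6 CPM in DU145_NC and 59.3 in every DU145_R library, and to 10.7 to 13.9 CPM in PC3_NC and 9.85 to 13.3 CPM in PC3_R. The resistant and parental ranges of these tail-less RNAs overlapped in PC3, and in DU145 the resistant libraries were just below the parental ones.

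The share of all counts that came from the mitochondrial genome moved in opposite directions in the 2 lines. It was 3.98%, 4.04% and 4.30% in the DU145_NC libraries and 7.04%, 7.14% and 7.06% in DU145_R. It was 5.73%, 5.68% and 6.04% in PC3_NC and 3.55%, 3.50% and 3.46% in PC3_R. No group overlapped another in either line, so resistant DU145 lay above its parent and resistant PC3 below. The ratio of means was 1.72 for DU145 and 0.602 for PC3. An exact two-sided permutation test of 3 libraries against 3 cannot go below 0.1, which both reached (0.107 after Benjamini-Hochberg adjustment over 30 comparisons of shares). A share of counts cannot tell a change in mitochondrial RNA from a change in nuclear RNA. In bulk samples of a cell line, a change in every cell and a change in some of the cells cannot be told apart either.

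The make-up of that share differed as well. Messenger RNA was 68.9% ± 1.68 of mitochondrial counts in DU145_NC and 82.1% ± 0.872 in DU145_R (SD, n = 3 here and below), and 86.3% ± 0.531 in PC3_NC and 88.4% ± 0.621 in PC3_R. Ribosomal RNA was 28.7% ± 1.66 and 17.3% ± 0.851 in the DU145 groups, and 12.4% ± 0.593 and 10.1% ± 0.695 in the PC3 groups. These are shares of counts after oligo(dT) selection, and how far the selection recovered rRNA was not tested. Transfer RNA was a small part, 2.41% ± 0.0235 in DU145_NC and 0.667% ± 0.0208 in DU145_R, and 1.27% ± 0.0619 in PC3_NC and 1.48% ± 0.0779 in PC3_R. The tRNA share was thus lower in resistant DU145 and higher in resistant PC3, with no overlap between libraries in either line (exact permutation p = 0.1, the smallest possible). The rise of the mRNA share in PC3 turned into a difference of -0.396 percentage points when FPKM (fragments per kilobase of gene and 1000000 fragments), which divides by gene length, was summed in place of counts.

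Against the mRNAs, minus-strand tRNAs summed as a class set DU145_R apart. They gave 27.2, 28.2 and 28.6 counts per 1000 mRNA counts in DU145_NC but 4.59, 4.39 and 4.24 in DU145_R. In PC3_NC they gave 12.3, 12.2 and 11.04, and in PC3_R 11.7, 12.8 and 11.99. DU145_R thus lay far below every other group, while the 2 PC3 groups overlapped (exact permutation p = 0.6). MT-TN, MT-TC, MT-TY and MT-TA, neighbours on the genome, had the highest mean counts of this class and weigh most in its sum. In the DU145 fit relative to mRNA described below, plus-strand MT-TL1 fell too (-2.48). Minus-strand MT-TE fell less (-1.44), and MT-TQ did not pass (-0.52, edgeR adjusted p = 0.054). Plus-strand tRNAs went from 7.07 ± 0.412 to 3.72 ± 0.162 per 1000 mRNA counts in DU145 and from 2.94 ± 0.106 to 4.52 ± 0.309 in PC3, again without overlap. Minus-strand genes made up 79.8% ± 0.529 of tRNA counts in DU145_NC, 54.2% ± 0.111 in DU145_R, 80.1% ± 1.39 in PC3_NC and 72.9% ± 1.22 in PC3_R.

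**Figure D1:**
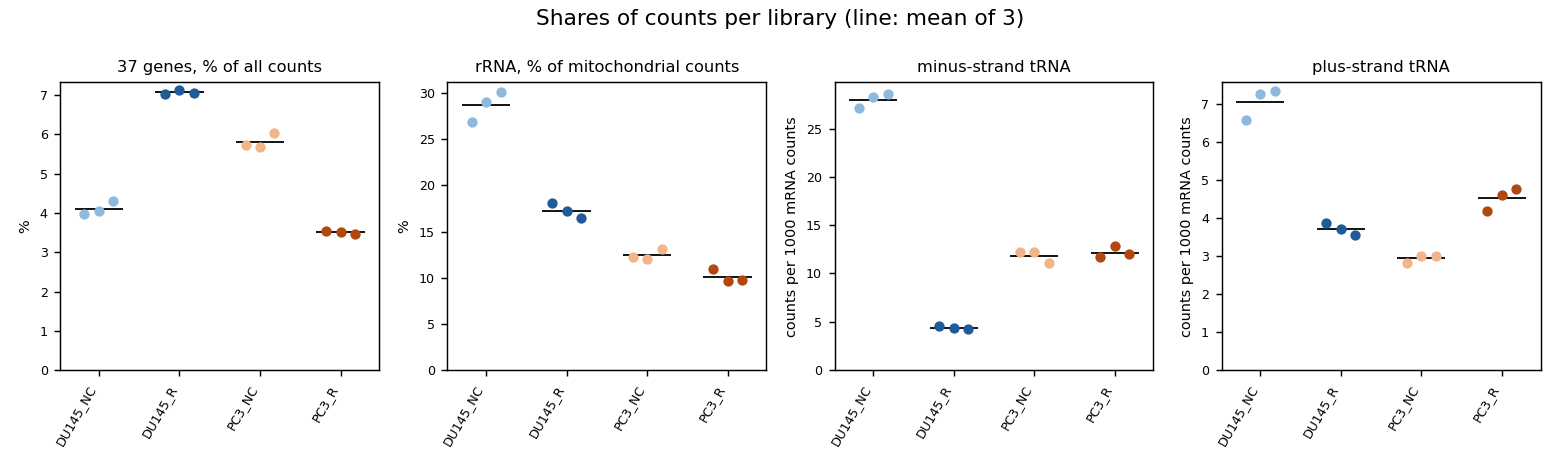
Per-library shares of counts in the 4 groups: the 37 mitochondrial genes in % of all counts, rRNA in % of mitochondrial counts, and minus- and plus-strand tRNA counts per 1000 mitochondrial mRNA counts, with each point a library and the line the mean of 3. The mitochondrial share was 7.04% to 7.14% in DU145_R and 3.46% to 3.55% in PC3_R, outside the range of the parental libraries in both lines.

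All 13 mRNAs rose in DU145_R against DU145_NC, by a median of 1.03 on the log2 scale, with a range from 0.68 to 1.59 (edgeR quasi-likelihood test, adjusted p under 0.05 over the 24128 genes tested). Over all genes tested, 18.9% were called higher and 20.7% lower, 39.6% in either direction, and the median change was 0. In PC3_R against PC3_NC all 13 fell, by a median log2 change of -0.68 and a range from -1.19 to -0.33. There 22.4% of all genes were called higher and 21.6% lower, 44.0% in either direction, again with a median of 0. On quantile-normalized FPKM, which forces every library onto the same set of values, 10 of the 13 were called higher in DU145 and MT-ATP6 was at -0.10. In PC3 that scaling called 3 mRNAs lower and 3, MT-ND4, MT-ND4L and MT-ATP6, higher. The other scalings tried left all 13 called in the same direction in both lines.

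**Figure D2:**
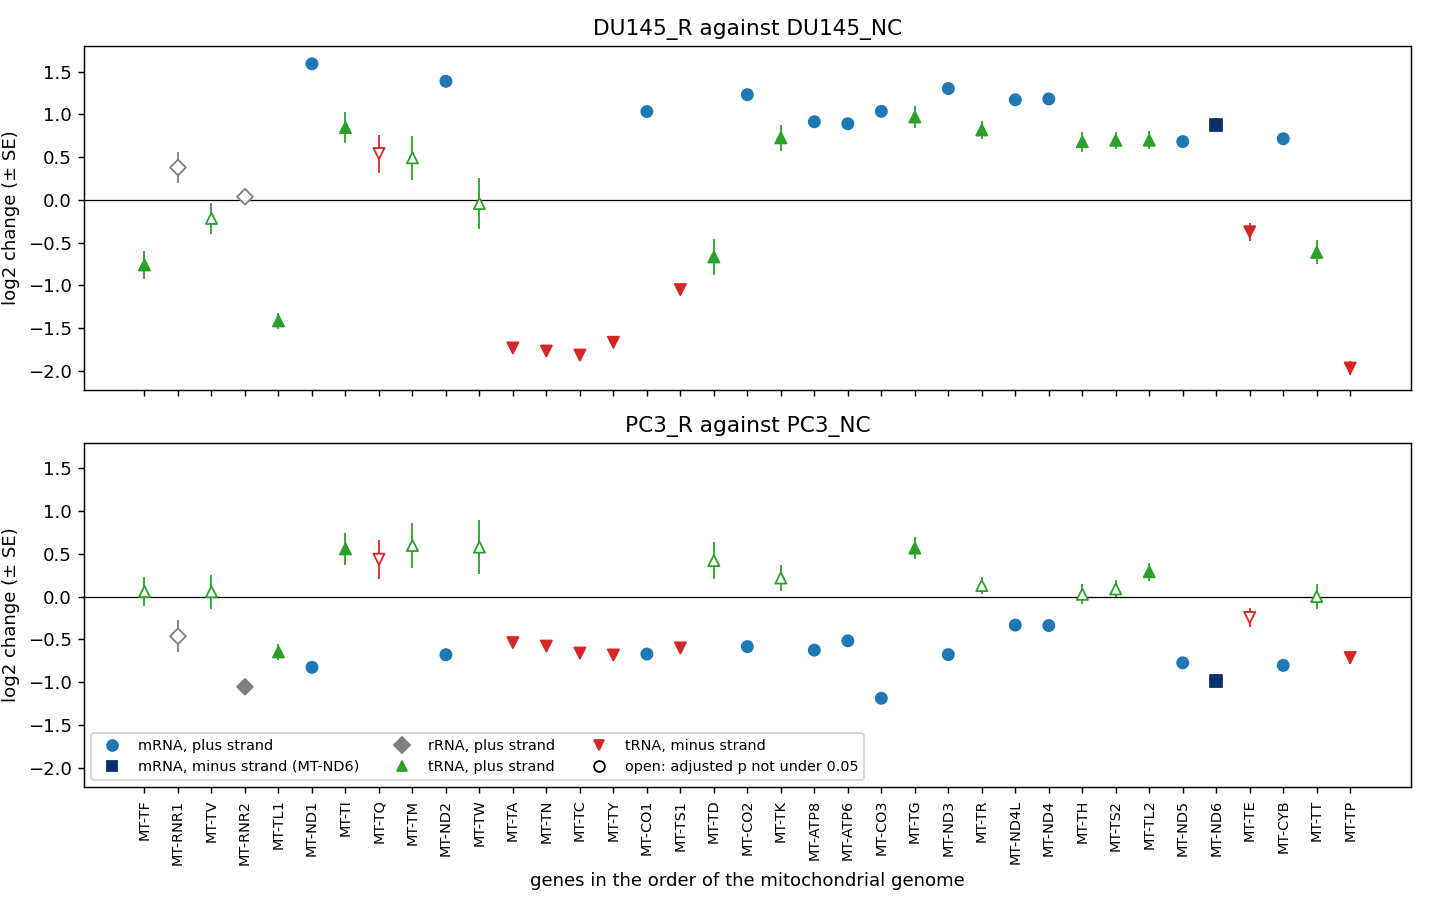
Log2 change ± SE of each of the 37 genes in the order of the mitochondrial genome, for DU145_R against DU145_NC (upper panel) and PC3_R against PC3_NC (lower panel), by RNA class and strand, with filled symbols for an edgeR adjusted p under 0.05. Blue symbols (mRNA) lie between 0.68 and 1.59 above and between -1.19 and -0.33 below, while most red ones (minus-strand tRNA) are under 0 in both panels; on quantile-normalized FPKM MT-ATP6 falls to -0.10 in DU145, and MT-ATP6, MT-ND4 and MT-ND4L lie above 0 in PC3.

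The 7 complex I genes encode subunits of the membrane arm of NADH dehydrogenase, the entry point of electrons from NADH. MT-ND1, next to MT-TL1 and the rRNA genes, was at 1188, 1178 and 1154 CPM in DU145_NC and 3497, 3572 and 3528 in DU145_R. In PC3_NC it was at 2865, 2788 and 2891 CPM, and in PC3_R at 1598, 1587 and 1628. Its groups did not overlap, and its log2 change of 1.59 ± 0.03 (SE) in DU145 was the largest of the 13 (edgeR adjusted p = 1.3e-15). In PC3 it fell by 0.83 ± 0.03 on the log2 scale (edgeR adjusted p = 1e-12).

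MT-ND2 was at 1536, 1471 and 1553 CPM in DU145_NC, 3935, 4064 and 3914 in DU145_R, 2994, 3003 and 3251 in PC3_NC, and 1931, 1891 and 1948 in PC3_R. Both resistant groups were clear of their parents, with log2 changes of 1.39 ± 0.03 and -0.68 ± 0.03. The count of its nuclear copy MTND2P28 was 45.5% of its own in DU145_NC, 6.64% in DU145_R, 17.4% in PC3_NC and 16.4% in PC3_R. With copy counts added, the DU145 value of MT-ND2 relative to mitochondrial mRNA, described below, went from 0.32 to -0.06. MT-ND3, the mRNA with the lowest level per length in 3 of the groups (823 ± 77.5 FPKM in DU145_NC), changed by 1.301 ± 0.07 in DU145 and -0.68 ± 0.07 in PC3. MT-ND5, the longest gene of the 37 and the lowest mRNA per length in DU145_R (1909.9 ± 42.7 FPKM), had the smallest rise in DU145, 0.68 ± 0.04, and a log2 change of -0.78 ± 0.04 in PC3.

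MT-ND4L and MT-ND4 share 1 transcript and overlap by 7 bases, so their counts are not independent. MT-ND4 was at 3837, 3769 and 4080 CPM in DU145_NC, 8850, 9111 and 8507 in DU145_R, 6300, 6695 and 6920 in PC3_NC, and 5372, 5379 and 4988 in PC3_R. The pair changed almost equally, by 1.17 ± 0.03 (MT-ND4L) and 1.18 ± 0.04 (MT-ND4) in DU145. In PC3 they had the smallest falls of the 13, -0.33 ± 0.03 and -0.34 ± 0.04, and on quantile-normalized FPKM their sign in PC3 turned.

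MT-ND6 is the light-strand mRNA and the member described as lacking a long poly(A) tail. It was at 643, 630 and 662 CPM in DU145_NC and at 1141, 1198 and 1212 in DU145_R. In PC3_NC it was at 948, 953 and 1053 CPM and in PC3_R at 486, 520 and 479. It thus had the direction of the plus-strand mRNAs in both lines, and in DU145 the opposite direction to 7 of the 8 minus-strand tRNAs, with log2 changes of 0.88 ± 0.04 and -0.99 ± 0.05 (edgeR adjusted p = 3.3e-10 and 6.6e-11). Its share of mRNA counts was 2.34% ± 0.0269 in DU145_NC, 2.06% ± 0.0473 in DU145_R, 1.95% ± 0.0561 in PC3_NC and 1.55% ± 0.0671 in PC3_R, lower in the resistant libraries of both lines without overlap (exact permutation p = 0.1 in each).

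MT-CYB encodes cytochrome b, the mitochondrially encoded subunit of complex III. It was at 1823, 1778 and 1925 CPM in DU145_NC, 2943, 3104 and 3020 in DU145_R, 1992, 1966 and 2125 in PC3_NC, and 1195, 1142 and 1144 in PC3_R. It rose by 0.71 ± 0.04 on the log2 scale in DU145 and fell by 0.81 ± 0.04 in PC3. The parental lines were closest for this mRNA, with a log2 difference of 0.14 ± 0.04 for PC3_NC against DU145_NC.

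MT-CO1, MT-CO2 and MT-CO3 encode the catalytic core of cytochrome c oxidase, complex IV. MT-CO1 had the highest mean count over the 12 libraries of all members. It was at 6560, 6357 and 6412 CPM in DU145_NC, 13232, 13014 and 13277 in DU145_R, 16432, 16220 and 16906 in PC3_NC, and 10612, 10258 and 10219 in PC3_R. It rose by 1.03 ± 0.02 in DU145 and fell by 0.67 ± 0.02 in PC3 on the log2 scale. Per length it was the highest mRNA of both PC3 groups (10656 ± 200 FPKM in PC3_NC), while MT-ATP8 was the highest in both DU145 groups (6362 ± 562 FPKM in DU145_NC).

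MT-CO2 rose by 1.23 ± 0.03 in DU145 and fell by 0.59 ± 0.03 in PC3. MT-CO3 was at 2796, 2662 and 2675 CPM in DU145_NC, 5404, 5346 and 5906 in DU145_R, 4470, 4250 and 4753 in PC3_NC, and 1979, 1974 and 1955 in PC3_R. Its log2 change in PC3, -1.19 ± 0.04, was the largest of any mRNA there (edgeR adjusted p = 4.4e-12), against a rise of 1.03 ± 0.04 in DU145 (2.1e-11).

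MT-ATP8 and MT-ATP6 encode subunits of the ATP synthase in overlapping reading frames. The overlap is shown because reads inside it belong to both genes and the way they were counted is not given in the sources used here. It spans chrM:8527-8572 on the plus strand of GRCh38, and its capitals mark the start codon of MT-ATP6 and the stop codon of MT-ATP8.
MT-ATP8/MT-ATP6 overlap: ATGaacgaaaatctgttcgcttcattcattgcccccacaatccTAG
MT-ATP6 was at 2583, 2521 and 2674 CPM in DU145_NC, 4684, 4826 and 4899 in DU145_R, 3238, 3193 and 3411 in PC3_NC, and 2340, 2241 and 2293 in PC3_R. MT-ATP8 changed by 0.91 ± 0.05 in DU145 and -0.63 ± 0.05 in PC3, and MT-ATP6 by 0.89 ± 0.03 and -0.52 ± 0.03, except on quantile-normalized FPKM, where MT-ATP6 was at -0.10 and 0.21.

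**Figure D3:**
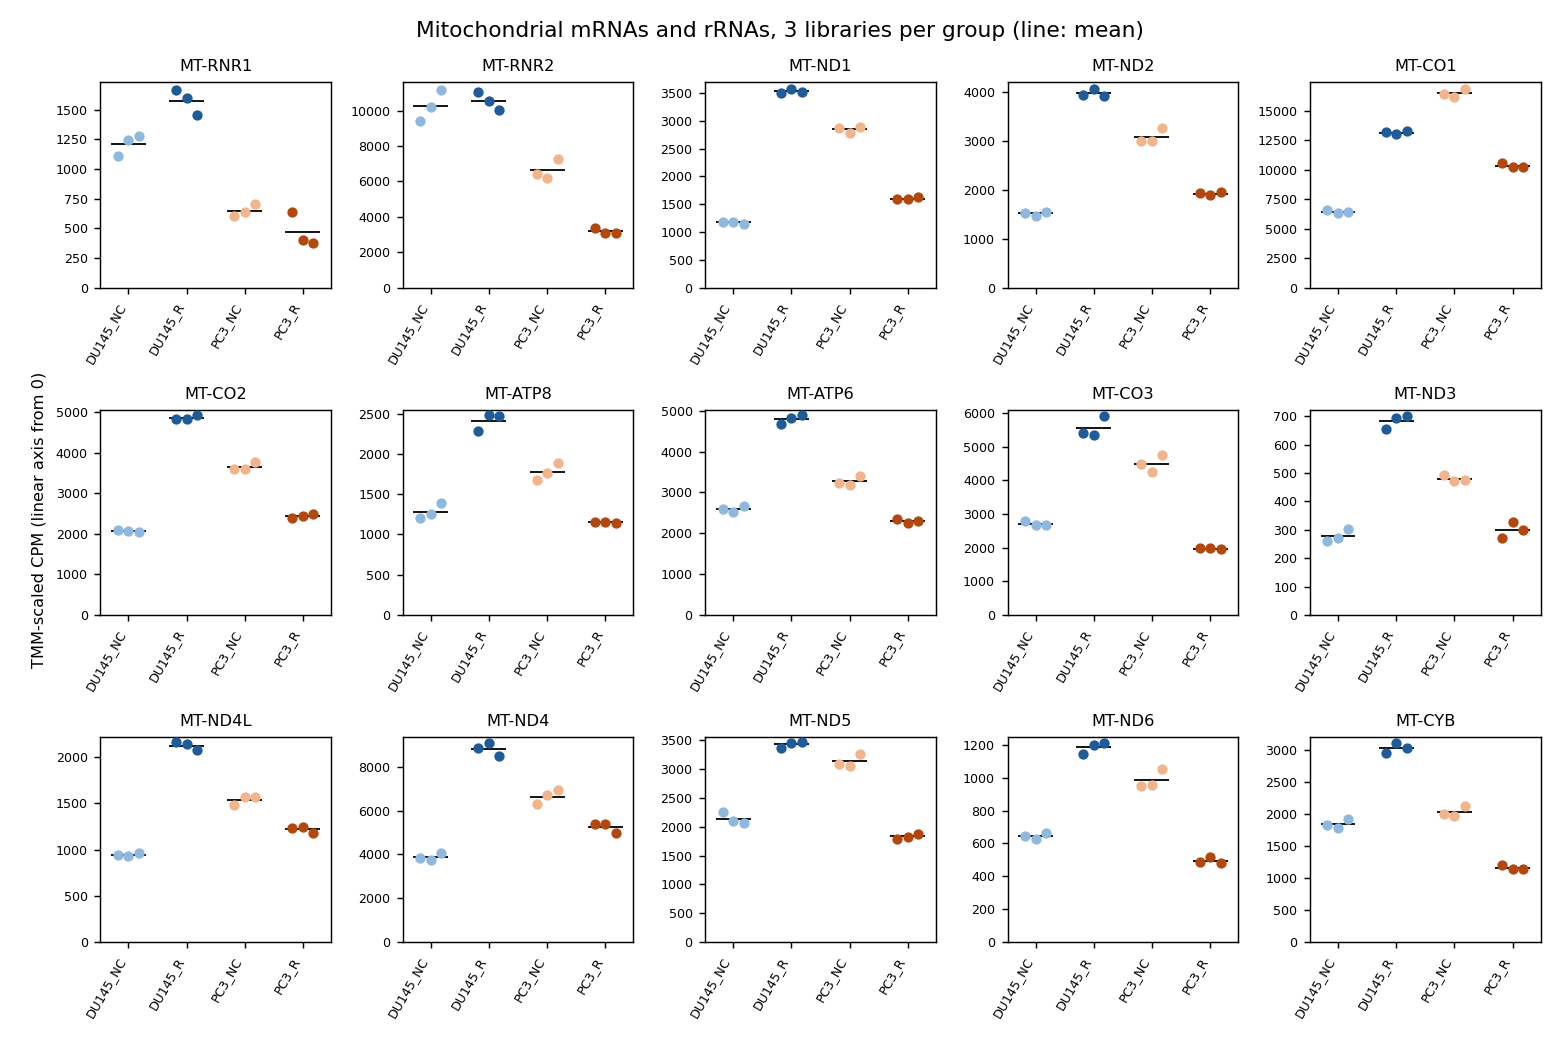
TMM-scaled CPM of the 13 mRNAs and 2 rRNAs in each library, on linear axes from 0, with 3 points and their mean for each of the 4 groups. MT-ND1 goes from 1154 to 1188 CPM in DU145_NC to 3497 to 3572 in DU145_R, and in PC3_R 1 library of MT-RNR1 stands at 637 CPM against 404 and 373 in the others.

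The rRNAs are the scaffold of the mitochondrial ribosome. Their counts in these oligo(dT)-selected libraries did not follow those of the mRNAs in DU145. MT-RNR2, the 16S rRNA, was at 9413, 10197 and 11186 CPM in DU145_NC and 11046, 10533 and 10003 in DU145_R. In PC3_NC it was at 6396, 6214 and 7289 CPM and in PC3_R at 3390, 3069 and 3116. The DU145 groups overlapped, with a log2 change of 0.04 ± 0.08 (edgeR adjusted p = 0.78), while in PC3 it fell by 1.06 ± 0.08 (7.4e-07). The change in DU145 was -1.02 on quantile-normalized FPKM.

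MT-RNR1, the 12S rRNA, was at 1111, 1242 and 1279 CPM in DU145_NC and 1666, 1598 and 1458 in DU145_R, where the groups did not overlap. In PC3_NC it was at 607, 636 and 709 CPM and in PC3_R at 637, 404 and 373. The first PC3_R library lay inside the parental range and the others below it. The log2 changes of 0.38 ± 0.18 in DU145 and -0.46 ± 0.18 in PC3 did not pass the test (edgeR adjusted p = 0.15 and 0.073). Without the first PC3_R library, which widens the spread that all groups share in the fit, they were 0.38 and -0.74 with edgeR adjusted p = 0.0011 and 1.4e-05. MT-RNR1 gave 11.8 ± 0.376 counts per 100 of MT-RNR2 in DU145_NC, 14.9 ± 0.322 in DU145_R, 9.82 ± 0.380 in PC3_NC and 14.6 ± 3.63 in PC3_R.

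Among the 8 minus-strand tRNAs, 7 fell in DU145_R and 6 in PC3_R, and none was called higher in either (edgeR). At an unadjusted p under 0.05, 1 (MT-TQ) was higher in DU145 and none in PC3, DESeq2 called 1 higher in DU145 and none in PC3, and limma on log2 FPKM 1 in each. In DU145 the fall ran against the rise of the mRNAs, and in PC3 it had the same direction as theirs. The median log2 change of the 8 was -1.70 in DU145 and -0.59 in PC3. Background shares are those given above, 20.7% and 21.6% of all genes called lower.

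The 4 genes of the block between MT-ND2 and MT-CO1 changed by similar amounts. MT-TA was at 104, 107 and 110 CPM in DU145_NC, 33.5, 33.2 and 29.9 in DU145_R, 77.5, 75.2 and 70.9 in PC3_NC, and 49.6, 54.4 and 49.9 in PC3_R. MT-TN was at 183, 187 and 196 CPM in DU145_NC, 57.1, 56.4 and 52.7 in DU145_R, 137, 135 and 125 in PC3_NC, and 85.4, 94.9 and 85.1 in PC3_R. In both genes the 4 groups were separate, in the order DU145_NC, PC3_NC, PC3_R, DU145_R.

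MT-TC was at 179, 183 and 190 CPM in DU145_NC, 51.6, 52.5 and 52.9 in DU145_R, 131, 134 and 122 in PC3_NC, and 77.2, 89.5 and 78.3 in PC3_R. MT-TY was at 164, 164 and 174 CPM in DU145_NC, 54.8, 51.9 and 51.8 in DU145_R, 117, 114 and 108 in PC3_NC, and 69.2, 72.1 and 69.3 in PC3_R. The same order of separate groups held. The log2 changes in DU145 were -1.73 ± 0.06 for MT-TA, -1.77 ± 0.06 for MT-TN, -1.81 ± 0.06 for MT-TC and -1.66 ± 0.05 for MT-TY, with edgeR adjusted p from 5.1e-13 to 5.6e-12. In PC3 they were -0.54 ± 0.06, -0.58 ± 0.06, -0.66 ± 0.06 and -0.68 ± 0.05, with edgeR adjusted p from 7.6e-09 to 1.9e-06. Per length MT-TC stood at 2864 ± 117 FPKM in DU145_NC and 801 ± 13.6 in DU145_R, so in the parental line it exceeded MT-ND1 (1260.2 ± 4.55 FPKM). By counts MT-TC lay below MT-ND1 there, at 184 ± 5.29 against 1173 ± 17.7 CPM. The gene is 66 bases long, and how far fragments reaching in from neighbouring genes raise its FPKM was not tested.

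MT-TP was at 39.3, 38.1 and 39.9 CPM in DU145_NC, 10.9, 9.99 and 9.12 in DU145_R, 65.04, 64.1 and 62.6 in PC3_NC, and 38.02, 41.6 and 37.3 in PC3_R. Its log2 change in DU145, -1.97 ± 0.08, was the largest fall of the 37 genes (edgeR adjusted p = 1.5e-11), and in PC3 it was -0.71 ± 0.07. PC3_R overlapped DU145_NC. MT-TS1 was at 60.1, 59.4 and 62.2 CPM in DU145_NC, 30.4, 29.2 and 28.2 in DU145_R, 66.4, 68.9 and 72.9 in PC3_NC, and 46.3, 44.3 and 46.7 in PC3_R, with log2 changes of -1.05 ± 0.06 and -0.60 ± 0.06. Resistant libraries were below their parents in both genes.

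MT-TE, beside MT-ND6, was at 19.2, 20.4 and 20.9 CPM in DU145_NC, 16.7, 15.1 and 14.9 in DU145_R, 12.8, 11.2 and 13.7 in PC3_NC, and 10.9, 10.6 and 10.4 in PC3_R. It changed least of the 7 that fell in DU145, by -0.37 ± 0.10, and its change of -0.25 ± 0.11 in PC3 missed the threshold (edgeR adjusted p = 0.075). MT-TQ was the exception in sign. It was at 3.97, 3.48 and 4.61 CPM in DU145_NC and 6.36, 5.49 and 5.73 in DU145_R, at 1.57, 1.76 and 1.79 in PC3_NC and 2.27, 2.47 and 2.19 in PC3_R. Its groups did not overlap, but the log2 changes of 0.54 ± 0.22 and 0.44 ± 0.23 did not pass (edgeR adjusted p = 0.066 and 0.14); DESeq2 called it higher in DU145. Its neighbour MT-TI, on the opposite strand and overlapping it, was called higher in both lines.

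**Figure D4:**
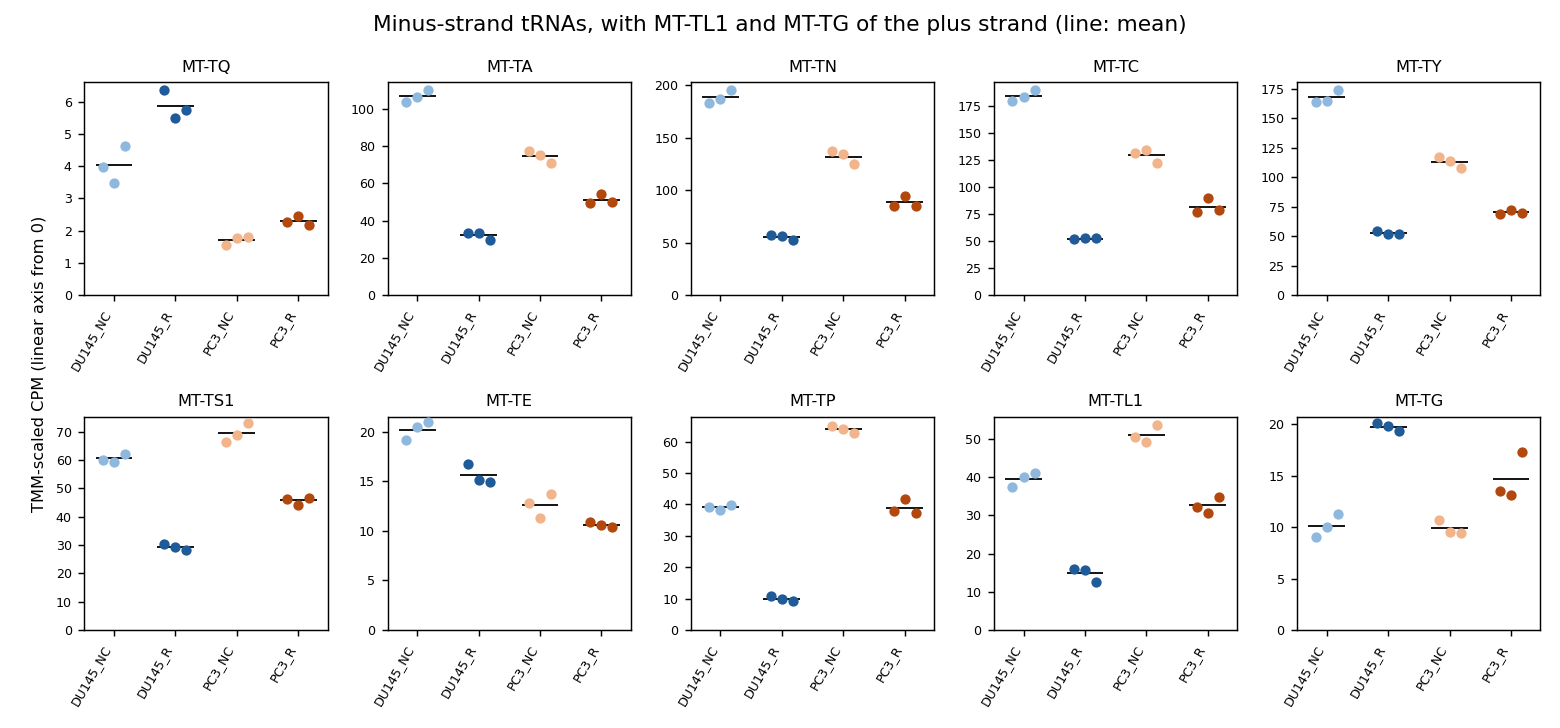
TMM-scaled CPM of the 8 minus-strand tRNAs and of MT-TL1 and MT-TG from the plus strand in each library, on linear axes from 0, with points for libraries and a line for the mean of 3. MT-TN stands at 183 to 196 CPM in DU145_NC and 52.7 to 57.1 in DU145_R, while MT-TG goes from 9.02 to 11.3 up to 19.4 to 20.1.

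The 14 plus-strand tRNAs did not move as 1 class. In DU145_R, 7 rose, 4 fell and 3 did not pass, where 18.9% and 20.7% of all genes were called higher and lower. MT-TL1, which follows MT-RNR2 and holds the binding site of the termination factor MTERF1, was at 37.4, 39.97 and 41.2 CPM in DU145_NC, 16.1, 15.7 and 12.7 in DU145_R, 50.6, 49.3 and 53.7 in PC3_NC, and 32.3, 30.8 and 34.9 in PC3_R. It was the plus-strand tRNA with the largest fall in DU145, -1.41 ± 0.09 (edgeR adjusted p = 5.2e-09), and the 1 that fell in PC3, -0.65 ± 0.09 (1.7e-05). Every resistant library lay below every parental library of its line.

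MT-TF, the first gene after the heavy-strand promoter, was at 16.1, 18.9 and 20.6 CPM in DU145_NC and 11.2, 12.02 and 9.64 in DU145_R, a log2 change of -0.76 ± 0.17 (edgeR adjusted p = 0.0017). MT-TT fell by 0.61 ± 0.14. MT-TD had a log2 change of -0.67 ± 0.21 (edgeR adjusted p = 0.019), which lost its call in 4 of the fits that leave out 1 library. MT-TV between the rRNA genes, MT-TM and MT-TW did not pass, with log2 changes of -0.22, 0.49 and -0.04.

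The 7 that rose in DU145 were MT-TI, MT-TK, MT-TG, MT-TR, MT-TH, MT-TS2 and MT-TL2, and all but MT-TI lie between MT-CO2 and MT-ND5. MT-TG, between MT-CO3 and MT-ND3, was at 9.02, 9.97 and 11.3 CPM in DU145_NC, 20.1, 19.8 and 19.4 in DU145_R, 10.7, 9.51 and 9.45 in PC3_NC, and 13.5, 13.1 and 17.3 in PC3_R. It was higher in every resistant library of both lines, by 0.97 ± 0.13 in DU145 and 0.57 ± 0.13 in PC3. The remaining 6 had log2 changes from 0.68 to 0.85 in DU145. In PC3 3 of the 14 plus-strand tRNAs were called higher, MT-TI (0.56 ± 0.19), MT-TG and MT-TL2 (0.29 ± 0.10). Of all genes tested, 22.4% were called higher in PC3. MT-TL2 lost its call in 9 of the other fits and MT-TI in 4, and the number called higher in PC3 among all 37 genes ran from 1 to 9 over all fits. The tRNA genes are 59 to 75 bases long, and how far their counts come from fragments that reach into neighbouring genes was not tested.

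Counted over all 37 genes, 20 rose, 11 fell and 6 did not pass in DU145, and 3 rose, 21 fell and 13 did not pass in PC3. Of all genes tested, 18.9% were called higher and 20.7% lower in DU145, and 22.4% and 21.6% in PC3. The difference between the changes of the 2 lines was itself tested as an interaction, PC3 change minus DU145 change. It passed for 29 of the 37, 19 below 0 and 10 above 0, where 20.0% and 22.1% of all genes were called below and above 0 and 42.1% in all. All 13 mRNAs were below 0, from -2.42 ± 0.04 for MT-ND1 to -1.41 ± 0.05 for MT-ATP6; on quantile-normalized FPKM MT-ATP6, MT-ND4 and MT-ND4L were at 0.30, 0.22 and 0.06. MT-TP (1.25 ± 0.10), MT-TA (1.19 ± 0.09), MT-TN (1.19 ± 0.08), MT-TC (1.15 ± 0.08), MT-TY (0.98 ± 0.07) and MT-TS1 (0.45 ± 0.08) were above 0, since they fell less in PC3 than in DU145.

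A second fit took the summed mitochondrial mRNA counts of a library as the reference, so that a value is a change relative to mitochondrial mRNA. In that scale the median of all genes is not 0 but -1.04 for DU145 and 0.63 for PC3, because the reference itself moved. In DU145, 6 members were called higher and 23 lower, against 3.69% and 56.8% of all genes (60.5% in either direction). In PC3, 18 were higher and 6 lower, against 45.1% and 8.33% (53.4%). These shares follow the movement of the reference, and the values are read among the members only.

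Relative to mitochondrial mRNA, no tRNA was called higher in DU145_R by edgeR and 16 of 22 were called lower. MT-TP had a log2 change of -3.03 ± 0.09, MT-TC of -2.88 ± 0.07, MT-TN of -2.83 ± 0.07, MT-TA of -2.79 ± 0.07, MT-TY of -2.73 ± 0.06, MT-TL1 of -2.48 ± 0.10 and MT-TS1 of -2.11 ± 0.06. In PC3_R these same 7 genes kept close to mRNA, with values from -0.06 to 0.12, and none passed (lowest edgeR adjusted p = 0.17). The other 15 tRNAs, 13 of them on the plus strand, were called higher relative to mRNA in PC3, by 0.41 to 1.26. The 7 tRNAs named here thus had the lowest changes relative to mRNA of the 22 in both lines, which is not a statement about their levels.

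Among the mRNAs the relative fit showed smaller shifts. In DU145 MT-ND1 gained 0.53 ± 0.03 and MT-ND2 0.32 ± 0.03, and MT-ND5 and MT-CYB were at -0.38 ± 0.04 and -0.35 ± 0.03. Genes lying between these on the genome went both ways, with MT-CO2 at 0.16, MT-ATP6 at -0.17 and MT-ND3 at 0.24. In PC3 MT-ND4L and MT-ND4 gained 0.32 each, and MT-CO3 was at -0.53 ± 0.04 and MT-ND6 at -0.33 ± 0.04. The value of MT-ND2 in DU145 was -0.06 once the counts of its nuclear copies were added to it. The rRNAs were at -0.69 ± 0.17 (MT-RNR1) and -1.03 ± 0.06 (MT-RNR2) in DU145 and at 0.19 ± 0.17 and -0.40 ± 0.06 in PC3, where MT-RNR1 did not pass and was at -0.08 without the first PC3_R library.

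The parental lines already differed in these genes. In PC3_NC against DU145_NC, 16 members were higher, 15 lower and 6 did not pass, where 30.9% and 29.5% of all genes were called higher and lower (60.3% in all). All 13 mRNAs were higher in PC3_NC, from 0.14 (MT-CYB) to 1.36 ± 0.02 (MT-CO1), though on quantile-normalized FPKM MT-CYB was at -0.18 and MT-ATP6 at -0.34, and MT-ATP8, MT-CO3, MT-ND4, MT-ND4L and MT-ND5 did not pass. MT-CYB also lost its call in 4 other fits, with upper-quartile scaling, both limma fits without quantile normalization, and without the second DU145_NC library (0.088, edgeR adjusted p = 0.11). Both rRNAs were lower, with log2 differences of -0.90 ± 0.19 for MT-RNR1 and -0.63 ± 0.08 for MT-RNR2. Of the tRNAs, MT-TL1 (0.37 ± 0.09), MT-TP (0.71 ± 0.07) and MT-TS1 (0.20 ± 0.06) were higher and 13 lower. MT-TS1 lost its call on quantile-normalized FPKM and without the second DU145_NC library (0.16, edgeR adjusted p = 0.062). MT-TV had the largest difference of all members, -3.32 ± 0.20: it was at 22.4, 23.3 and 25.2 CPM in DU145_NC and 1.73, 2.36 and 3.00 in PC3_NC, and at 22.3, 20.7 and 18.03 in DU145_R and 2.53, 1.86 and 2.95 in PC3_R. MT-TV, the valine tRNA that in human cells is also part of the mitochondrial ribosome, thus lay far apart between the lines. Every DU145_R library was also below every DU145_NC library, without a call by edgeR, and the PC3 groups overlapped. Relative to mitochondrial mRNA it was called in both lines, at -1.28 ± 0.18 in DU145 and 0.72 ± 0.19 in PC3.

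Relative to mitochondrial mRNA, 21 of the 22 tRNAs were lower in PC3_NC than in DU145_NC, and over all members 3 were called higher and 31 lower, against 15.1% and 50.9% of all genes (66.0%). The exception was MT-TP, at -0.16 ± 0.08 (edgeR adjusted p = 0.077). The summed histone mRNAs, which lack poly(A) tails, were also lower in PC3_NC (10.7 to 13.9 CPM) than in DU145_NC (61.5 to 73.6 CPM). How far recovery of tail-less RNA differed between the lines was not tested.

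Between the resistant lines the mRNA order was turned over. In PC3_R against DU145_R, 7 members were higher and 29 lower, where 30.6% and 29.1% of all genes were called higher and lower (59.8% in all). All 13 mRNAs were lower in PC3_R, from -1.50 ± 0.04 (MT-CO3) to -0.35 ± 0.02 (MT-CO1). Those higher were 6 minus-strand tRNAs, led by MT-TP (1.96 ± 0.08), and MT-TL1 (1.14 ± 0.09). This contrast shares its libraries with the others, so it is not separate evidence.

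Nuclear DNA holds old copies of mitochondrial genes that can take or give reads. The tables held 110 such copies, of which 30 passed the filter, and 6 fell and none rose in each resistance contrast. Of all genes tested, 20.7% were called lower in DU145 and 21.6% in PC3, and 18.9% and 22.4% higher. Only 3, close together on chromosome 1 and together 98.3% of the counts of all copies, were abundant. MTND2P28 (629640 to 630683 on the plus strand, GRCh38) is 98.4% identical to MT-ND2, and MTCO1P12 (631074 to 632616) and MTATP6P1 (633696 to 634376) are 98.7% and 98.5% identical to their parents; MTCO1P12 and MTATP6P1 were chosen after their values were seen. MTND2P28 was at 680, 685 and 709 CPM in DU145_NC, 267, 264 and 260 in DU145_R, 537, 514 and 554 in PC3_NC, and 306, 320 and 321 in PC3_R.

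It thus fell in both resistant lines, by 1.39 ± 0.04 in DU145, where MT-ND2 rose, and by 0.76 ± 0.04 in PC3. MTCO1P12 had log2 changes of -1.17 ± 0.08 and -0.93 ± 0.08, and MTATP6P1 of -0.76 ± 0.04 and -0.49 ± 0.04. The count of MTND2P28 was 45.5% of that of MT-ND2 in DU145_NC, 6.64% in DU145_R, 17.4% in PC3_NC and 16.4% in PC3_R. With the counts of the copies added to their parents, all 13 mRNAs were still called higher in DU145 and lower in PC3.

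The nuclear-encoded partners of these genes were described by lists of named genes. Of the 37 nuclear subunits of complex I measured, 2 were higher, 11 lower and 24 not called in DU145_R, with a median log2 change of -0.07, and 12 were higher and 10 lower in PC3_R, median 0.05. NDUFV3, an accessory subunit, rose in both lines (0.67 ± 0.06 and 0.68 ± 0.06), and NDUFA5 fell in DU145 (-0.62 ± 0.07). The 7 mitochondrial genes of complex I changed by 0.68 to 1.59 and by -0.99 to -0.33 in the same contrasts.

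Of the 4 complex II genes, all nuclear, none was called in DU145 by edgeR at its adjusted threshold. In PC3_R SDHB and SDHD were higher, SDHB by 1.21 ± 0.09, and 2 were lower. Of the 9 nuclear complex III genes 3 were higher and 2 lower in DU145, and 3 and none in PC3. Of 13 in complex IV 4 were higher and 1 lower in DU145, and 4 and 2 in PC3. Of 15 in complex V 6 were higher and 2 lower in DU145, and 3 and 5 in PC3. COX5A rose by 0.54 ± 0.08 and ATP5F1A, the alpha subunit of complex V, by 0.57 ± 0.04 in DU145.

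Of 9 genes for mitochondrial transcription, 2 were higher and 3 lower in DU145_R, and 5 and 2 in PC3_R. TFAM, which packages mitochondrial DNA and activates its promoters, rose in both lines. It went from 35.3 ± 1.97 to 72.9 ± 6.40 CPM in DU145 and from 94.4 ± 8.43 to 198 ± 4.32 in PC3, with log2 changes of 1.05 ± 0.07 and 1.07 ± 0.07 (edgeR adjusted p = 1e-08 and 4.8e-09). TFAM mRNA was thus higher in both resistant lines. Whether TFAM or any other gene of these lists bears on the mitochondrial RNA levels was not tested. TFB2M, the other promoter factor, rose in PC3 (0.87 ± 0.09).

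Of 14 genes for mitochondrial RNA stability and decay, 8 were higher and 2 lower in DU145_R, and 7 and 1 in PC3_R. LRPPRC, which binds and stabilises mitochondrial mRNAs, went from 192 ± 12.3 to 459 ± 24.0 CPM in DU145, a log2 change of 1.26 ± 0.05 (edgeR adjusted p = 5e-11), and stood at 166 ± 7.61 and 160 ± 6.18 CPM in PC3_NC and PC3_R. Its interaction was -1.31 ± 0.08 (edgeR adjusted p = 1.5e-09). PNPT1, part of the mitochondrial RNA degradosome, rose in PC3 by 0.90 ± 0.07. Of 20 genes for RNA processing and modification, 7 were higher and 3 lower in DU145, and 9 and 2 in PC3, where ELAC2, which cuts the 3′ ends of mitochondrial tRNAs, rose by 0.52 ± 0.05.

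Of 17 genes for mitochondrial DNA replication and the nucleoid, 8 were higher and 6 lower in DU145 and 10 and 3 in PC3. POLG, the replicative polymerase, and TWNK, the helicase, rose in DU145 by 0.86 ± 0.06 and 0.74 ± 0.10. PRIMPOL rose by 2.05 ± 0.14 and TK2, a mitochondrial thymidine kinase, fell by 1.42 ± 0.10 in PC3. Of 82 mitochondrial ribosome genes, 28 were higher and 10 lower in DU145, median 0.10, and 37 and 13 in PC3, median 0.17. Of 19 synthetases that charge mitochondrial tRNAs, 10 were higher and 5 lower in DU145, and 7 and 3 in PC3.

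Of 13 translation factors 5 were higher and 2 lower in DU145, and 6 and 3 in PC3, with MTIF2 up in both. Of 14 biogenesis regulators, 13 tested, 5 were higher and 2 lower in DU145 and 5 and 4 in PC3; PPRC1, a coactivator of the PGC-1 family, rose in both (0.75 ± 0.06 and 0.90 ± 0.06). Of the 8 histone genes tested 1 was lower in each line. These counts are descriptions, to be read against the background of 18.9% and 20.7% in DU145 and 22.4% and 21.6% in PC3.

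**Figure D5:**
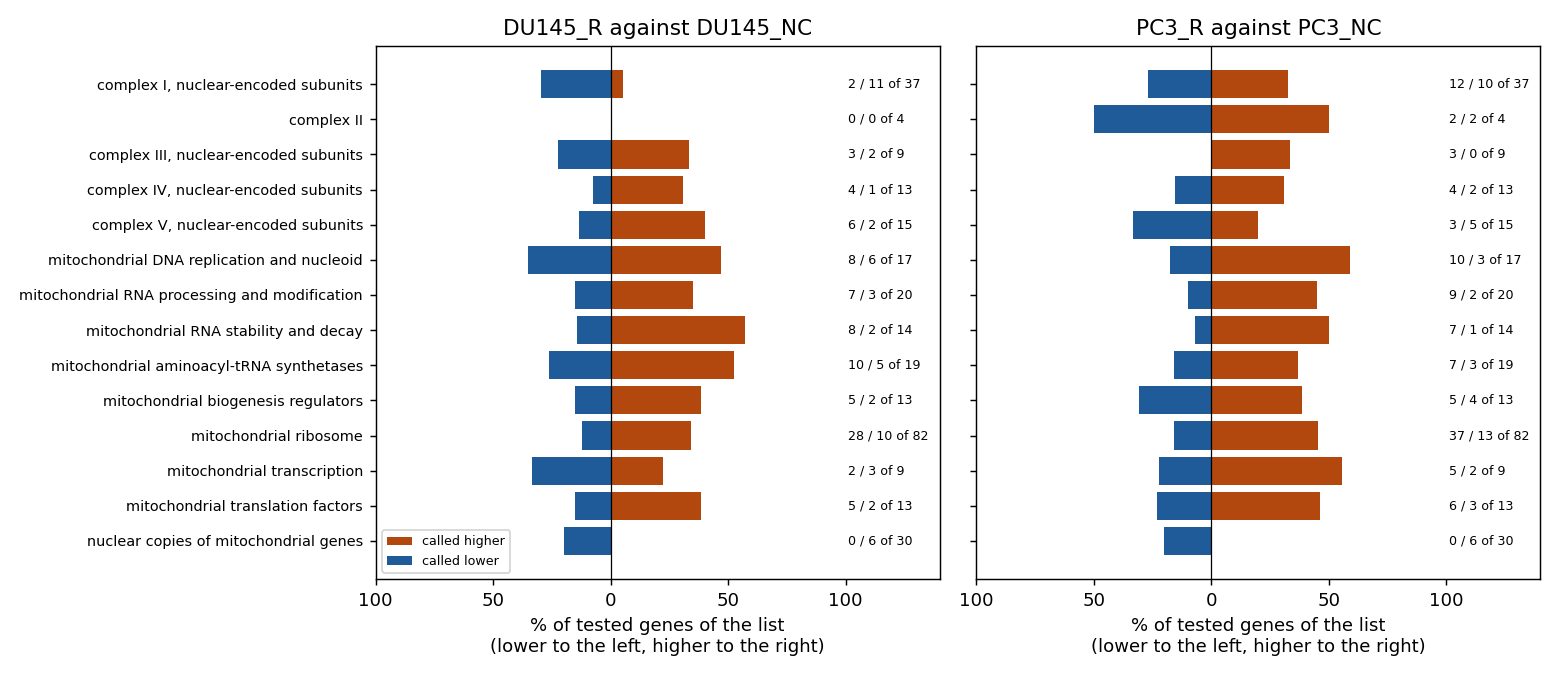
Percent of the tested genes of each nuclear list that were called higher (right, brown) or lower (left, blue) by edgeR in DU145_R and PC3_R against their parents, with the counts higher / lower of tested printed at the right. Mitochondrial ribosome genes were higher in 28 of 82 in DU145 and 37 of 82 in PC3, and nuclear copies of mitochondrial genes were lower in 6 of 30 in both. Over all genes tested, 18.9% were called higher and 20.7% lower in DU145, and 22.4% and 21.6% in PC3.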

How the data were processed

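Per the labels' protocols, paired-end libraries with dUTP in the second strand were made from oligo(dT)-selected RNA. HISAT2 2.0.4, cutadapt 1.9, StringTie 1.3.4d, edgeR, DESeq2 and build hg18 are named in the submitters' processing notes, but the coordinates in the files were those of GRCh38. How reads were counted, with which strand setting and annotation, is not given in the sources used here, so reads of overlapping and opposite-strand genes cannot be told apart. The deposited tables give whole-number counts and FPKM per gene; the deposited FPKM is the count divided by length and library total.

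Counts were fitted with edgeR 4.0.16 (R 4.3.3): its low-count filter (24128 genes kept), TMM factors, 1 mean per group over 12 libraries, robust quasi-likelihood F test with 8 residual degrees of freedom, and Benjamini-Hochberg adjustment over all genes tested, with a threshold of 0.05. CPM are TMM-scaled, except those of the cell type markers and the histone sums, which are per library total. SE is the log2 change over the root of F. The relative fit used the log summed mitochondrial mRNA count as offset. Shares were compared by exact permutation (SciPy 1.17.1). The fit was tested on simulated data. Alternatives were DESeq2 1.42.0, other scalings, limma 3.58.1 on log2(FPKM + 1) or + 0.1 for genes with FPKM of at least 1 in 3 libraries, nuclear copies added, a replicate block and leaving out each library.

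Every mRNA and rRNA, every tRNA with a mean count of at least 100 (all 22), and at most the 3 called genes with the largest change per list and comparison were named. The members, lists and tests were chosen with earlier results of these data known.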

Additional observations from a re-analysis of the deposited data

Results flagged for a closer look

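The change on resistance differed between the lines, by a test of the difference itself (edgeR interaction, PC3 change minus DU145 change, adjusted p under 0.05), for 29 of the 37 genes, where 42.1% of all genes tested passed. Values are log2 differences. Those below 0 were MT-ND1 (-2.42), MT-CO3 (-2.22), MT-ND2 (-2.07), MT-ND3 (-1.98), MT-ND6 (-1.87), MT-CO2 (-1.81), MT-CO1 (-1.70), MT-ATP8 (-1.54), MT-CYB (-1.52), MT-ND4 (-1.52), MT-ND4L (-1.50), MT-ND5 (-1.46) and MT-ATP6 (-1.41) among the mRNAs. MT-RNR2 (-1.09) and MT-RNR1 (-0.84) followed among the rRNAs, and MT-TR (-0.69), MT-TH (-0.65), MT-TS2 (-0.61) and MT-TL2 (-0.41) among the plus-strand tRNAs. Those above 0 were the minus-strand MT-TP (1.25), MT-TN (1.19), MT-TA (1.19), MT-TC (1.15), MT-TY (0.98) and MT-TS1 (0.45), and the plus-strand MT-TD (1.09), MT-TF (0.82), MT-TL1 (0.77) and MT-TT (0.61). The call of MT-RNR1 was lost in 9 of the fits that leave out 1 library and that of MT-TL2 in 8. The 8 genes that did not pass were all tRNAs.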

How the results depend on the processing

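The class calls of the mRNAs and of the minus-strand tRNAs called lower were the same in DU145 (13 and 7) in every fit other than the quantile-normalized one, which called 10 and 7. The replicate numbers in the labels did not pair the libraries: deviations of same-numbered libraries correlated from -0.10 to 0.04. With the replicate block the counts higher and lower stayed at 20 and 11 in DU145, 3 and 21 in PC3, 16 and 15 for the parents, 7 and 29 for the resistant lines and 10 and 19 for the interaction, and the log2 change of MT-TT in PC3 went from -0.00072 to 0.0015. On quantile-normalized FPKM, which forces every library onto the same set of values, 8 members were higher between the parents, and 9 were higher and 10 lower in PC3. The median log2 change of the mRNAs was then 0.44 in DU145 and -0.090 in PC3. There log2 values turned sign in DU145 for MT-ATP6 (-0.10) and MT-RNR2 (-1.02), between parents for MT-ATP6 (-0.34) and MT-CYB (-0.18), and in PC3 for MT-ATP6 (0.21), MT-ND4 (0.31), MT-ND4L (0.21), MT-TF (-0.075), MT-TH (-0.055), MT-TR (-0.023) and MT-TV (-0.041). In the interaction they turned for MT-ATP6 (0.30), MT-ND4 (0.22), MT-ND4L (0.057), MT-RNR2 (0.90) and MT-TE (-0.086). Limma on log2(FPKM + 1) and on log2(FPKM + 0.1) called 7 members higher in PC3, and the fit without a low-count filter called 1. MT-TH in PC3 was at -0.012 with library totals alone, at -0.0091 with both limma fits and at -0.0016 with upper-quartile scaling, and MT-TT at 0.0077 with nuclear scaling; neither was called. In the relative fits, adding nuclear copies gave MT-CO3 0.033 and MT-ND2 -0.062 in DU145. An offset from all mitochondrial genes gave MT-CO3 0.22 in DU145, MT-ND2 0.013, MT-TC 0.029 and MT-TY 0.0068 in PC3, and 8 members higher between parents; the cause was not tested. Summed FPKM turned the mRNA share difference in PC3 to -0.396.

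Leaving out 1 library at a time, the number higher in PC3 ran from 1 to 3. Values that crossed 0, none of them called, were in DU145 MT-RNR2 (-0.021 to 0.11) and MT-TW (-0.089 to 0.024). Between parents they were MT-TG (-0.10 to 0.037), MT-TH (-0.20 to 0.017), MT-TR (-0.080 to 0.034) and the minus-strand share of tRNA (-0.418 to 0.955 percentage points). In PC3 they were MT-TF (-0.093 to 0.22), MT-TH (-0.10 to 0.099), MT-TT (-0.057 to 0.10), MT-TV (-0.13 to 0.26) and minus-strand tRNA per 1000 mRNA counts (-0.0563 to 0.572). In the interaction MT-TM ran from -0.011 to 0.24. In the relative fit of PC3 they were MT-RNR1 (-0.076 to 0.33), MT-TC (-0.076 to 0.041), MT-TL1 (-0.049 to 0.052) and MT-TY (-0.084 to 0.0100). Of the list counts, those called lower moved most: complex I in DU145 from 11 to as few as 7, mitochondrial ribosome from 10 to 6, transcription from 3 to 0, translation factors from 2 to 0, nuclear copies from 6 to 3, and in PC3 complex V from 5 to 3 and synthetases from 3 to 1. Lowest counts limit the small tRNAs: MT-TW had a mean of 110 counts per library.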
